A study of Sus scrofa with 9 samples.

Results

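The abdominal aorta of Tibetan minipigs after 8 weeks of a high-fat diet (H8) was compared with that of pigs on a normal diet (NC). The comparison took the 3 H8 and the 3 NC libraries of the 9 in the series, and the 14336 of 21357 genes in the deposited table that had a mean FPKM (fragments per kilobase of transcript, scaled to the mapped fragments of the library) of at least 0.1 over these 6 libraries. AQP5, at a mean FPKM of 0.1001, lay just inside that limit and CNDP1, at 0.09995, just outside it. H8 pigs carried the disease label hypercholesterolemia, and NC pigs were the normal controls, kept on their diet for 24 weeks. The remaining 3 libraries (H24), labelled atherosclerosis, came from pigs given the high-fat diet for 24 weeks, and their values stand beside those of H8 where a gene is described. All 3 groups were of the same breed, with no transgene or drug named. H8 and NC thus differed in the diet and in the weeks of feeding, and the effects of diet, feeding time and the age reached cannot be told apart. The methods describe the NC and H24 pigs, males of which 3 of 5 in each group were sequenced, but not the H8 animals. No source used here says that the H8 libraries came from separate pigs, so the spread within H8 that enters the p-values may be technical alone.

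Atherosclerosis develops where cholesterol-carrying lipoproteins are retained in the arterial intima. Monocytes enter there, become macrophages, take up lipid through scavenger receptors and turn into foam cells, which return cholesterol to lipoproteins through efflux transporters. The media of the aorta consists mainly of contractile smooth muscle cells, the adventitia holds fibroblasts and resident immune cells, and fat cells lie in the tissue around the vessel. Complement proteins tag lipoproteins and dying cells for clearance and call in leukocytes, chaperones of the heat shock families refold damaged proteins, and immediate early genes encode transcription factors and phosphatases that are induced first after a stimulus.

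Total counts ran from 64805289 to 75787978 over the 6 NC and H8 libraries and from 44094263 to 65728854 over the H24 libraries. In NC and H8, 3 counts corresponded to 0.0396 to 0.0463 CPM (counts scaled to the library total), a limit that covers counting error only. Pearson's r of log2(CPM + 1) between libraries was 0.975 to 0.979 within NC and 0.961 to 0.977 within H8. H8 replicate 2 had the lowest scaling factor of the trimmed mean of M values (TMM), 0.873, and stood apart from the other H8 libraries in several gene groups given below. Genes of contractile smooth muscle were the most abundant cell-type markers, with MYH11, the smooth muscle myosin heavy chain, at FPKM of 3317, 2356 and 2763 in NC and 2782, 1831 and 3055 in H8. None of the 7 skeletal and cardiac muscle genes tested was called in either direction. The extraction text in the labels speaks of adipose tissue while the tissue label names the abdominal aorta. ADIPOQ, the defining hormone of fat cells, was at 4.44, 14.6 and 6.83 FPKM in NC.

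A gene was called higher or lower when its log2 fold change exceeded 1 in size with an unadjusted p under 0.05 in edgeR's quasi-likelihood test, the thresholds of the study. By this rule 733 genes were higher in H8, 5.11% of those tested, and 326 were lower, 2.27%. At an edgeR adjusted p under 0.05, 2 genes were higher (0.014%) and 2 were lower (0.014%), so nearly all of the calls below rest on unadjusted p-values. The count of genes higher at that adjusted threshold was 0 without NC replicate 1, 1 without NC replicate 2 and 0 without NC replicate 3, and it was 7, 34 and 16 without H8 replicates 1, 2 and 3. The count of genes lower was 1 without NC replicate 3, 4 without H8 replicate 3 and 2 or 3 without any other library. The median log2 fold change was 1.81 among genes called higher, -1.62 among genes called lower and 0.01 over all genes tested. The 3 libraries of each group did not overlap in FPKM for 483 of the genes called higher and for 297 of those called lower, where 6.91% and 15.9% of all genes tested were free of overlap in these directions (11.3% and 10.1% on TMM-scaled CPM). H8 replicate 1 held the highest H8 value for 44.7% of the genes called higher, H8 replicate 2 for 40% and H8 replicate 3 for 15.3%. Among genes called lower, the lowest H8 value was in H8 replicate 2 for 58.3%. With no scaling beyond library size, 55.7% of the calls were higher in place of 69.2%. Of the genes described below, APOE, CCN1, IRF7, LIPE, MMP9, MYH11 and TNF overlap another tested gene on the opposite strand, C2, CTSS, PMF1 and TM7SF2 overlap another on the same strand, ELANE, MMP19 and NOS2 overlap both kinds, and HSPA5 and HSPA8 hold small RNA genes. The kit and the counting are not stated to use strand, so reads of these genes may include those of their neighbours.

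**Figure D1:**
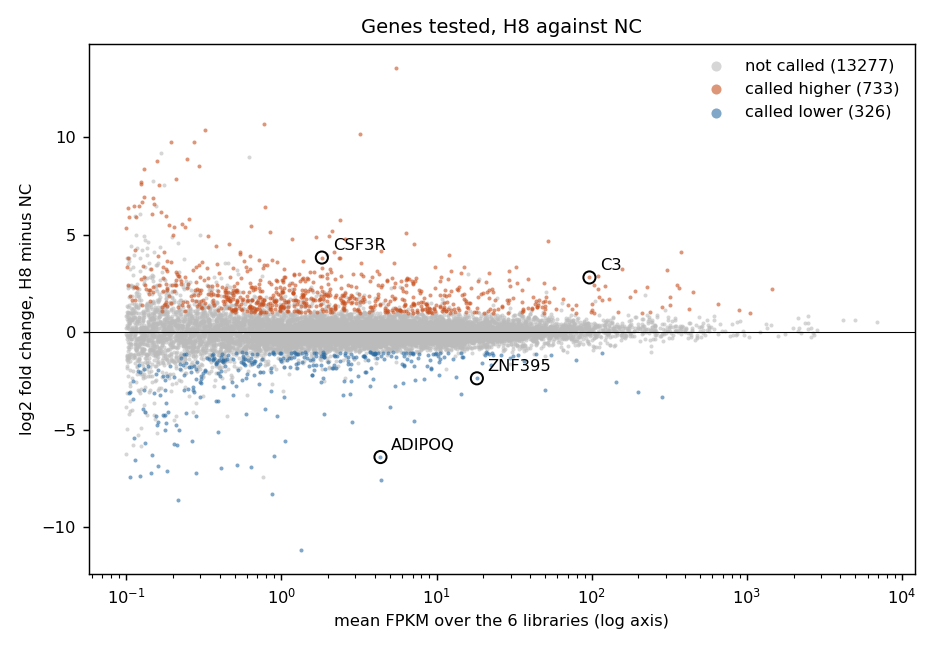
Log2 fold change of H8 against NC (vertical axis) over the mean FPKM of the 6 libraries (horizontal log axis), with 1 point for each of the 14336 genes tested. Genes called higher (733) are orange, genes called lower (326) are blue and the remaining 13277 are grey; the 4 genes past the adjusted threshold, C3, CSF3R, ZNF395 and ADIPOQ, are circled and named.

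C3, the central component of the complement cascade, had FPKM of 24.6, 22.4 and 31.1 in the NC libraries and 219.6, 142 and 141 in the H8 libraries. Every H8 value was above every NC value, with a log2 fold change of 2.82 ± 0.24 (SE, 3 libraries per group here and below; edgeR adjusted p = 0.0207). CSF3R, the receptor for granulocyte colony-stimulating factor carried by neutrophils and other myeloid cells, stood at 0.301, 0.232 and 0.233 FPKM in NC and at 4.32, 2.21 and 3.65 in H8. It was low in all NC libraries and rose by a log2 fold change of 3.84 ± 0.33 (edgeR adjusted p = 0.0207). In H24 the FPKM was 223, 202 and 930.3 for C3 and 7.28, 4.55 and 46.8 for CSF3R, and H24 replicate 3 was far above every H8 library for both. The log2 fold changes of H24 over NC, which share the NC libraries, were 4.10 and 6.23.

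ZNF395, a zinc finger DNA-binding protein, had the smallest adjusted p of the 4. It stood at 30.6, 33.5 and 28.6 FPKM in NC and at 5.87, 5.11 and 5.57 in H8, and both groups were tight and far apart (log2 fold change -2.35 ± 0.14, edgeR adjusted p = 0.00724). The H24 libraries, at 4.92, 31.9 and 15.8 FPKM, reached from the level of H8 to that of NC. ADIPOQ, which encodes the fat cell hormone adiponectin, had FPKM of 4.44, 14.6 and 6.83 in NC and 0.0954, 0.106 and 0.0789 in H8. The lowest NC library was far above the highest H8 library, and the log2 fold change was -6.39 ± 0.55 (edgeR adjusted p = 0.0207), or -5.74 without NC replicate 2, the highest.

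Macrophage genes were higher in H8, and most so in H8 replicate 1. Of the 14 macrophage genes tested, 10 were called higher and none lower, 71.4% against 5.11% of all genes tested, and the median log2 fold change of the list was 1.89 against 0.01 over all genes (1.25 for the list without H8 replicate 1). ADGRE1 and MARCO, on the same list, were under the expression limit. The summed FPKM of the list came to 80.1, 71.7 and 69.3 in NC and 418, 83.0 and 215 in H8, so H8 replicate 2 was only just above the NC range. In bulk tissue more cells of a type and more RNA per cell cannot be told apart.

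SPI1, which encodes PU.1, the transcription factor that specifies the myeloid lineage, had FPKM of 1.66, 2.45 and 2.44 in NC and 14.9, 4.31 and 10.0 in H8. All H8 libraries exceeded all NC libraries (log2 fold change 2.26 ± 0.44, edgeR adjusted p = 0.170). TYROBP, the signalling adaptor of myeloid receptors such as TREM2, was at 8.80, 5.05 and 5.90 in NC and 40.3, 8.15 and 22.5 in H8, where H8 replicate 2 lay inside the NC range. The log2 fold change of 1.96 ± 0.53 was 1.33 without H8 replicate 1 (edgeR adjusted p = 0.209 with all libraries). FCER1G, the common gamma chain of Fc receptors, was at 9.79, 6.18 and 8.89 in NC and 59.7, 13.6 and 31.9 in H8, with no overlap. A log2 fold change of 2.19 ± 0.48 was found, and 1.57 without H8 replicate 1. AIF1, a macrophage cytoskeletal protein also known as IBA1, had FPKM of 0.399, 0.342 and 0.383 in NC and 1.82, 0.568 and 0.992 in H8 and a log2 fold change of 1.70 ± 0.44. CSF1R, CD163, CD14 and MRC1, defining receptors of macrophages or monocytes, were not called, with log2 fold changes of 1.04, 1.27, 0.48 and 0.17, and those of CSF1R and CD163 were 0.37 and 0.36 without H8 replicate 1. Without H8 replicate 2 those 2 genes were called, at 1.41 and 1.71, and with all libraries both were called by DESeq2, at 1.03 and 1.26.

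Genes of lipid-laden macrophages and their scavenger receptors followed the same order of libraries in their list median. Of 13 tested, 7 were called higher and none lower (53.8%), with a median log2 fold change of 1.66. GPNMB, a lysosomal glycoprotein of foam cells, had FPKM of 7.22, 4.55 and 7.01 in NC and 112, 14.2 and 49.6 in H8. The groups were apart, H8 replicate 1 was far above the others, and the log2 fold change was 3.33 ± 0.66 with all libraries and 2.45 without that library (edgeR adjusted p = 0.172 with all). LGALS3, the lipid-laden macrophage lectin galectin-3, was at 11.9, 10.2 and 8.66 in NC and 82.3, 22.4 and 43.0 in H8, also apart, with a log2 fold change of 2.37 ± 0.42 that was 1.79 without H8 replicate 1. SPP1, the secreted matrix protein osteopontin, was at 9.81, 5.97 and 9.51 in NC and 43.6, 11.2 and 56.9 in H8 (log2 fold change 2.25 ± 0.51), and H8 replicate 2 was only just above the NC libraries. OLR1, the receptor LOX-1 for oxidized low-density lipoprotein, was at 2.88, 2.40 and 2.05 in NC and 7.09, 9.48 and 4.15 in H8, where H8 replicate 2 was the highest library (log2 fold change 1.66 ± 0.38).

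**Figure D2:**
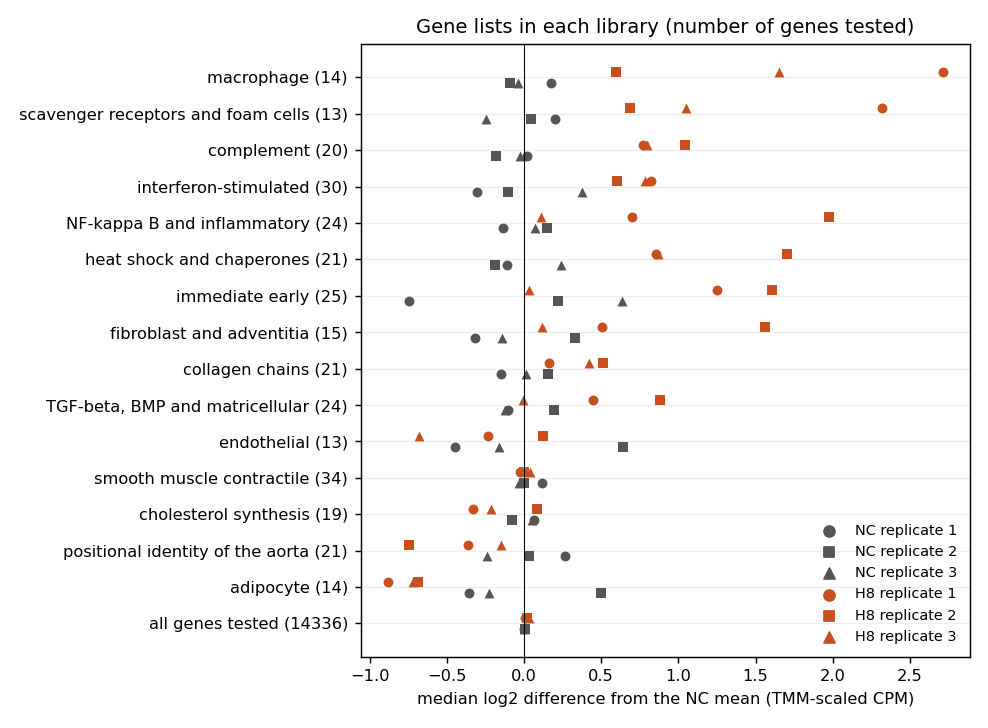
Median over the tested genes of each list (number in brackets) of the log2 difference in TMM-scaled CPM from the NC mean, with 1 symbol per library, NC grey and H8 orange. The macrophage list stood at 2.71, 0.60 and 1.65 in H8 replicates 1, 2 and 3, while the NF-kappa B list stood at 0.70, 1.98 and 0.11.

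Cholesterol efflux genes under the liver X receptor were called higher in 3 of 12 cases (25%) and lower in none. ABCA1, the transporter that loads cholesterol onto apolipoprotein A-I, had FPKM of 0.527, 0.454 and 0.483 in NC and 1.52, 0.919 and 1.59 in H8. The NC libraries were close together and below all H8 libraries (log2 fold change 1.58 ± 0.26, edgeR adjusted p = 0.126). APOE, the apolipoprotein that macrophages secrete with cholesterol, was at 47.5, 25.2 and 23.8 in NC and at 494, 65.8 and 287 in H8. H8 replicate 2 was nearest to NC, and the log2 fold change was 3.24 ± 0.66, or 2.55 without H8 replicate 1. The partner transporter ABCG1 was at 1.15, 0.879 and 0.473 FPKM in NC and 3.88, 0.910 and 2.57 in H8, and H8 replicate 2 lay inside the NC range. The log2 fold change of 1.66 ± 0.52 became 1.16 without H8 replicate 1 and was then not called.

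Complement genes were higher beyond C3. Of 20 tested, 9 were called higher (45%) and none lower (FCN2, a complement gene left off the list, was called lower and is described with the other lower genes). On the higher side 10 were free of overlap in FPKM, where 6.91% of all genes tested were (11.3% on TMM-scaled CPM). The median log2 fold change was 0.85, or 1.59 without NC replicate 2 and 1.48 without H8 replicate 3. C2, the protease of the classical and lectin pathway convertase, had FPKM of 2.30, 1.63 and 2.98 in NC and 17.1, 8.64 and 9.87 in H8. The groups were apart, with a log2 fold change of 2.49 ± 0.32 (edgeR adjusted p = 0.0716), and the gene overlaps CFB on the same strand, so reads of the 2 genes may have been shared. The C1q chain C1QB, which is also on the macrophage list, was at 8.30, 3.76 and 6.05 in NC and 49.9, 8.73 and 23.3 in H8, with H8 replicate 2 just above the NC libraries. Its log2 fold change of 2.29 ± 0.58 was 1.52 without H8 replicate 1. C5AR1, the receptor for the anaphylatoxin C5a, was at 2.91, 1.13 and 2.36 in NC and 18.5, 3.64 and 9.33 in H8, and its log2 fold change of 2.41 ± 0.58 was 1.72 without that library. SERPING1, the C1 inhibitor, was more abundant, at 139, 169 and 146 FPKM in NC and 197, 262 and 246 in H8. It did not overlap but stayed under the fold threshold (log2 fold change 0.78 ± 0.20).

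Leukocyte markers of other kinds were sparse. Of 6 T cell genes tested of 15 in the table, 2 were called higher (1 without H8 replicate 3), among them CD2, an adhesion receptor of T cells, at 0.163, 0.0469 and 0.110 FPKM in NC and 0.567, 0.323 and 0.449 in H8. All H8 values of CD2 were above NC, at levels under 1 FPKM (log2 fold change 2.18 ± 0.58). Among 6 cytotoxic lymphocyte genes 1 was higher and 1 was lower, with none lower without NC replicate 2. Among 6 genes of B and plasma cells 1 was higher (2 without NC replicate 2 or 3) and 1 was lower (2 without NC replicate 2, H8 replicate 1 or H8 replicate 3). Of the 4 neutrophil genes tested, 3 were called higher, CSF3R and CXCL8 among them, and ELANE, neutrophil elastase, was lower, at 0.603, 0.473 and 0.473 FPKM in NC and 0.119, 0.0888 and 0.0642 in H8 (log2 fold change -2.21 ± 0.60). With any 1 of the H8 libraries left out the count of lower neutrophil genes was 2. The 19 genes that the study put forward as network hubs, as transcription factors over the hubs or for RT-PCR are mostly of these myeloid and lymphoid kinds, and 14 were called higher (73.7%) and none lower. Because the study picked that list with NC libraries of this comparison, it is no independent evidence of direction. MMP9, the gelatinase on that list, had FPKM of 0.352, 0.174 and 0.375 in NC and 2.39, 1.09 and 1.80 in H8. The groups were apart (log2 fold change 2.68 ± 0.41, edgeR adjusted p = 0.0937).

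Inflammatory genes under nuclear factor kappa B were called higher in 9 of 24 cases (37.5%) and lower in none, with a median log2 fold change of 1.31. Here H8 replicate 2, low for macrophage genes, was the highest library. Without it the count was 4 and the median 0.24, and without NC replicate 3 the count was also 4. TNFAIP6, a hyaluronan-binding protein secreted in inflammation, had FPKM of 4.04, 3.46 and 2.31 in NC and 12.7, 33.2 and 7.45 in H8. The groups did not overlap, and the log2 fold change was 2.63 ± 0.60, or 1.69 without H8 replicate 2 (edgeR adjusted p = 0.187 with all). CXCL8, the neutrophil chemoattractant interleukin-8, was at 0.673, 0.922 and 0.415 in NC and 2.53, 35.5 and 2.56 in H8, with 1 library far above the rest, and its log2 fold change of 4.55 ± 1.204 was 1.97 without that library. NLRP3, the inflammasome sensor, had the other order, with FPKM of 0.312, 0.230 and 0.339 in NC and 1.85, 0.410 and 1.33 in H8, lowest of the H8 libraries in replicate 2 (log2 fold change 2.13 ± 0.53). REL, a subunit of the factor itself, was at 1.01, 0.466 and 0.907 in NC and 1.81, 2.76 and 1.39 in H8 (log2 fold change 1.49 ± 0.40). TNF itself was scarce but called, at 0.0596, 0.0413 and 0.0400 FPKM in NC and 0.0944, 0.172 and 0.228 in H8 (log2 fold change 1.88 ± 0.64; not called at 1.81 without NC replicate 2 or at 1.75 without NC replicate 3).

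Of 24 chemokines and chemokine receptors tested, 7 were called higher (29.2%) and 1 lower, and the count of higher genes was 3 without H8 replicate 1 and 4 without NC replicate 2. The list median of 0.86 was 0.20 without H8 replicate 2. CXCL14, a chemokine made by stromal and epithelial cells, was at 2.18, 1.29 and 1.19 FPKM in NC and 49.1, 2.74 and 16.0 in H8. H8 replicate 2 lay just above the NC range, and the log2 fold change of 3.96 ± 0.92 was 2.67 without H8 replicate 1. CCL4, which attracts monocytes and T cells, was at 0.220, 0.278 and 0.368 in NC and 0.913, 2.88 and 0.980 in H8, apart in every library, and its log2 fold change of 2.64 ± 0.61 was 1.77 without H8 replicate 2 (edgeR adjusted p = 0.192 with all).

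Heat shock genes and chaperones were higher in H8. All 21 tested had a log2 fold change above 0, and 11 were called higher (52.4%) and none lower. On the higher side 13 were free of overlap in FPKM, where 6.91% of all genes tested were (11.3% on TMM-scaled CPM). The median log2 fold change was 1.21 in H8 and -0.09 in H24 against the same NC libraries. HSP70.2, an inducible heat shock protein of the HSP70 family, was not on the list but ranked among the genes with the smallest p, with FPKM of 40.7, 33.2 and 62.2 in NC and 380.1, 803 and 927 in H8. The lowest H8 library was far above the highest NC library (log2 fold change 4.10 ± 0.42, edgeR adjusted p = 0.0556). Its FPKM in H24 was 45.5, 117 and 31.4, with a log2 fold change of H24 over H8 of -3.60 (edgeR adjusted p = 0.336). Inducible HSP70 genes have near-identical copies, and reads may have been split between them.

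DNAJB1, the main co-chaperone of inducible HSP70, had FPKM of 24.3, 23.7 and 39.1 in NC and 141, 304 and 131 in H8. The groups were apart, and the log2 fold change was 2.90 ± 0.43, or 2.30 without H8 replicate 2, the highest library (edgeR adjusted p = 0.0932 with all). DNAJB4, a related co-chaperone, was at 31.6, 24.6 and 31.8 in NC and 89.0, 80.0 and 62.8 in H8 and rose evenly in the 3 H8 libraries (log2 fold change 1.54 ± 0.20, edgeR adjusted p = 0.0688). HSPA8, the constitutive HSP70 that folds new proteins, was at 67.7, 51.7 and 113 in NC and 272, 444 and 198 in H8 (log2 fold change 2.15 ± 0.42). The mitochondrial chaperones HSPD1 and HSPE1 were not called, with log2 fold changes of 0.17 and 0.19. HSPA5 and SERPINH1, chaperones of the endoplasmic reticulum, were free of overlap but under the fold threshold, at 0.80 and 0.81. Of 19 genes of endoplasmic reticulum stress 1 was called higher and none lower, and none was called higher without NC replicate 1, NC replicate 2 or H8 replicate 2.

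Immediate early genes were called higher in 11 of 25 cases (44%) and lower in none, with a median log2 fold change of 1.09 in H8 and -0.21 in H24. The NC libraries were themselves spread, with list medians of -0.75, 0.22 and 0.63 around the NC mean, and H8 replicate 3 stood at 0.03. ATF3, a stress-induced transcription factor, had FPKM of 72.4, 20.3 and 105 in NC and 866, 567 and 205 in H8. The groups did not overlap, H8 replicate 1 was the highest, and the log2 fold change was 3.21 ± 0.72 (edgeR adjusted p = 0.187). JUN, a subunit of the AP-1 factor, was at 375, 456 and 259 in NC and 1356, 578 and 879 in H8, apart in every library (log2 fold change 1.48 ± 0.34). FOS and EGR1, the best known members of the group, were not called. FOS stood at 123, 586 and 706 FPKM in NC and 1153, 945 and 161 in H8, and the low libraries were NC replicate 1 and H8 replicate 3.

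**Figure D3:**
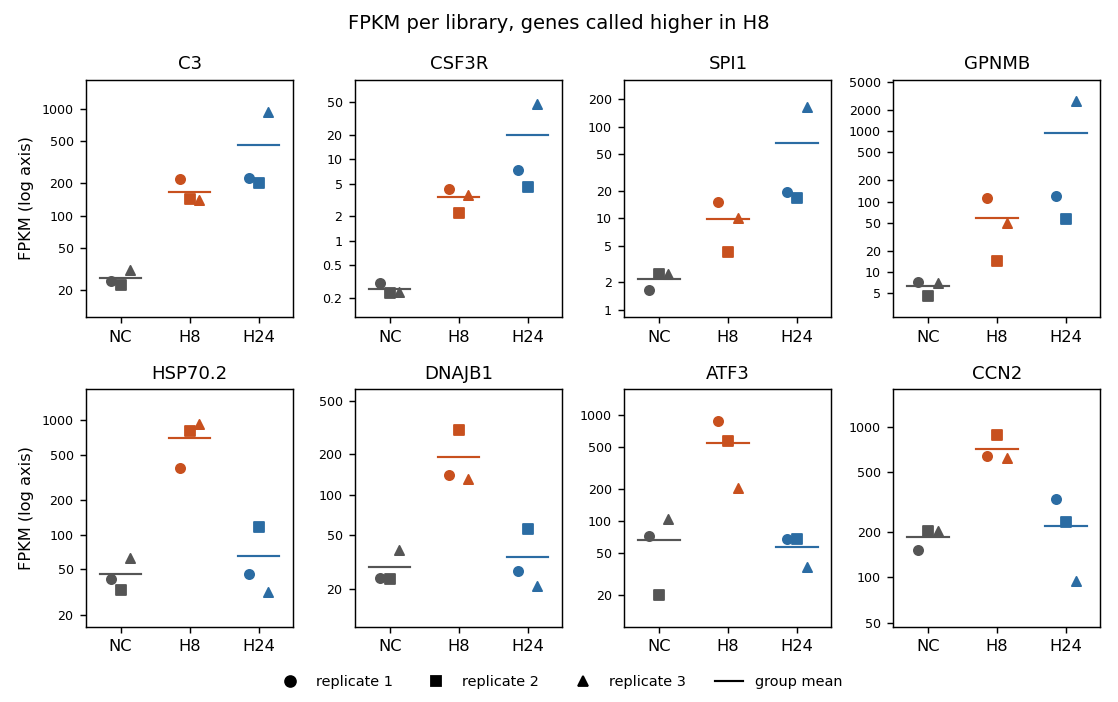
FPKM (vertical log axis) of 8 genes called higher in H8, in each library of NC (grey), H8 (orange) and H24 (blue), with a line at the group mean. C3, CSF3R, SPI1 and GPNMB were higher in both high-fat groups than in NC, while the H24 means of HSP70.2, DNAJB1, ATF3 and CCN2 lay below their H8 means.

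Other genes that ranked high were OTUD1, a deubiquitinase, and SLC38A2, an amino acid transporter induced by amino acid shortage. OTUD1 was at 4.04, 2.20 and 2.57 FPKM in NC, 35.0, 31.7 and 14.3 in H8 and 4.25, 2.46 and 2.44 in H24. It was high only in the H8 libraries among the 9 (log2 fold change of H8 over NC 3.36 ± 0.42, edgeR adjusted p = 0.0652). SLC38A2 was at 24.2, 26.2 and 29.5 in NC and 52.9, 54.3 and 59.1 in H8, with little spread in either group (log2 fold change 1.196 ± 0.15, edgeR adjusted p = 0.0652). FOLR1, a folate receptor, was at 8.48, 8.01 and 8.87 in NC, 43.2, 25.7 and 26.2 in H8 and 63.8, 53.1 and 393 in H24, each group above the one before (log2 fold change of H8 over NC 2.04 ± 0.22, edgeR adjusted p = 0.0566). SLC15A3, a lysosomal peptide transporter of immune cells, was at 2.92, 1.998 and 2.97 in NC and 7.63, 7.87 and 8.39 in H8, where the libraries were nearly equal (log2 fold change 1.74 ± 0.21, edgeR adjusted p = 0.0652).

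Interferon-stimulated genes were called higher in 10 of 30 cases (33.3%) and lower in none, and the median log2 fold change was 0.83. On the higher side 12 were free of overlap in FPKM, where 6.91% of all genes tested were (11.3% on TMM-scaled CPM). The 3 H8 libraries were alike here, with list medians of 0.82, 0.60 and 0.78 above the NC mean. The NC libraries were spread, at -0.31, -0.10 and 0.37, and the summed FPKM of NC replicate 3 (321) exceeded that of H8 replicate 2 (318). The count called higher was 7 without NC replicate 1 and 14 without NC replicate 3. BST2, which tethers enveloped viruses to the cell surface, had FPKM of 1.498, 1.55 and 2.14 in NC and 4.77, 4.53 and 4.77 in H8. The groups were apart (log2 fold change 1.57 ± 0.25, edgeR adjusted p = 0.108). ISG15, a ubiquitin-like modifier, was at 4.13, 4.13 and 9.01 in NC and 13.6, 12.6 and 15.6 in H8, with NC replicate 3 the highest of NC (log2 fold change 1.41 ± 0.32). IRF7, the factor that amplifies type I interferon, was at 0.997, 1.15 and 1.496 in NC and 2.61, 3.41 and 2.24 in H8 (log2 fold change 1.33 ± 0.31). Of 13 genes of antigen presentation by MHC class I none was called, with all 13 log2 fold changes above 0 and a median of 0.27. Of 9 for MHC class II, 3 were called higher (33.3% against 5.11% of all genes tested) and none lower. These were IFI30, CTSS and SLA-DMB. Of the 9, 6 log2 fold changes were above 0 and 3 below, with a median of 0.34. IFI30, the lysosomal thiol reductase on that list, was at 9.02, 6.98 and 9.56 FPKM in NC and between 16.9 and 20.5 in H8 (log2 fold change 1.28 ± 0.19, edgeR adjusted p = 0.0932).

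Several growth factors and matricellular proteins were called higher. CCN2, the matricellular protein known as connective tissue growth factor, had FPKM of 152, 203 and 202 in NC and 642, 884 and 620.0 in H8. The groups were far apart (log2 fold change 2.10 ± 0.26, edgeR adjusted p = 0.0652), and the H24 libraries, at 331, 233 and 94.1, ran from below to above the NC range. Its relative CCN1 was at 92.5, 176 and 192 in NC and 439, 677 and 346 in H8 (log2 fold change 1.83 ± 0.39). Of the 24 genes of transforming growth factor beta, bone morphogenetic protein and matricellular function, 5 were called higher (20.8%) and none lower. TGFB2, a ligand of that family, was at 4.53, 4.14 and 3.95 in NC and 10.5, 12.6 and 7.18 in H8 (log2 fold change 1.42 ± 0.26, edgeR adjusted p = 0.143). INHBA, which forms activin A, was at 7.78, 6.31 and 6.53 in NC and 16.8, 78.9 and 9.42 in H8, and its log2 fold change of 2.56 ± 0.78 was 1.01 without H8 replicate 2. HBEGF, a membrane-bound ligand of the epidermal growth factor receptor, was at 1.68, 1.91 and 1.80 in NC and 18.2, 9.07 and 5.86 in H8. The NC values were close together and under every H8 value (log2 fold change 2.75 ± 0.41, edgeR adjusted p = 0.0932). VEGFA, the endothelial growth factor, was at 6.28, 8.75 and 8.09 in NC and 15.4, 30.8 and 21.0 in H8 (log2 fold change 1.70 ± 0.31).

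Of 21 collagen chains tested, 3 were called higher (14.3%) and none lower, with 1 higher without H8 replicate 2 and 5 without H8 replicate 1. COL1A1 and COL1A2 encode the chains of type I collagen, the main fibre of the adventitia. COL1A1 had FPKM of 661, 805 and 751 in NC and 1068, 1352 and 1681 in H8, with no overlap. Its log2 fold change of 1.02 ± 0.23 sat at the threshold, and it was not called without NC replicate 1 (0.93), H8 replicate 2 (0.96) or H8 replicate 3 (0.89). With all libraries it was not called with library size only (0.88), upper-quartile scaling (0.999) or limma on log2(FPKM + 0.1) or log2(FPKM + 1) (0.87 in both). COL1A2 was at 555, 591 and 649.9 in NC and 875, 1586 and 1121 in H8, with a log2 fold change of 1.15 ± 0.28 that was 0.80 and not called without H8 replicate 2. Nor was COL1A2 called with library size only (0.98) or limma on log2(FPKM + 0.1) or log2(FPKM + 1) (0.96 in both). Fibroblast and adventitial markers were called higher in 5 of 15 cases (33.3%), in 1 without H8 replicate 2, in 2 without NC replicate 1 and in 3 without NC replicate 3. Their list medians were 0.50, 1.56 and 0.11 in the H8 libraries, so that the list stood highest in H8 replicate 2, and the part of that list in the collagen values was not tested. None of 21 proteoglycans and 2 of 23 genes of elastic fibres and crosslinking were called, and both of these were higher (1 without NC replicate 3 or H8 replicate 2).

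Of 20 matrix proteases and their inhibitors, 4 were called higher (20%) and none lower. MMP19, a matrix metalloproteinase, was at 2.46, 2.35 and 2.21 FPKM in NC and 7.24, 5.27 and 4.69 in H8. It did not overlap (log2 fold change 1.43 ± 0.21, edgeR adjusted p = 0.0932). CTSS, the elastin-degrading lysosomal protease of macrophages, was at 4.08, 3.18 and 2.61 in NC and 45.1, 4.41 and 11.2 in H8, highest in H8 replicate 1, and its log2 fold change of 2.72 ± 0.76 was 1.35 without that library. ADAMTSL4, a secreted protein that binds fibrillin microfibrils, went down, from 92.9, 148 and 115 FPKM in NC to 48.8, 32.9 and 40.5 in H8. Every H8 value was under every NC value (log2 fold change -1.42 ± 0.23, edgeR adjusted p = 0.114).

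Several fat cell genes were lower in H8, in all 3 libraries. Of 14 adipocyte genes tested, 5 were called lower (35.7% against 2.27% of all genes tested), 1 was called higher, and the median log2 fold change was -0.65. On the lower side 8 were free of overlap in FPKM, where 15.9% of all genes tested were (10.1% on TMM-scaled CPM). The gene called higher was CEBPA, a transcription factor of fat cells that also acts in the myeloid lineage, at 0.667, 0.214 and 0.226 FPKM in NC and 3.39, 0.519 and 1.68 in H8 and chosen here after its values were seen. Its log2 fold change of 2.43 ± 0.78 was 3.14 without NC replicate 1, and it was not called without NC replicate 2 (2.18), NC replicate 3 (2.18) or H8 replicate 1 (1.67). PLIN1, which coats the lipid droplet of fat cells, had FPKM of 3.59, 16.5 and 5.91 in NC and 0.0289, 0.0823 and 0 in H8, from counts of 474, 2538 and 776 in NC and 5, 12 and 0 in H8. It was near or at 0 in every H8 library, and its fitted log2 fold change of -7.57 ± 1.11 ran from -8.84 without H8 replicate 2, through -6.94 without H8 replicate 3, to -6.65 without NC replicate 2 (edgeR adjusted p = 0.0906 with all). DGAT2, which makes triglyceride, was at 4.46, 19.4 and 17.4 in NC and 0.665, 0.613 and 0.340 in H8, with NC replicate 1 the lowest of NC (log2 fold change -4.52 ± 0.64, edgeR adjusted p = 0.0839). LIPE, the hormone-sensitive lipase that releases fatty acids, was at 4.54, 9.83 and 5.604 in NC and 1.08, 1.07 and 1.29 in H8, flat across H8 (log2 fold change -2.41 ± 0.33, edgeR adjusted p = 0.0808). The summed FPKM of the list came to 235, 405 and 281 in NC and 186, 280.3 and 174 in H8, so that the sums overlapped. The amount of fat tissue taken with each vessel is not given, and its part in these values was not tested.

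In H24 these genes were uneven. ADIPOQ stood at 7.24, 0.0705 and 0.416 FPKM, PLIN1 at 5.58, 0.134 and 0.213 and DGAT2 at 9.15, 0.653 and 0.926, so H24 replicate 1 lay within or near the NC range and the others nearer to H8. THRSP, a regulator of fatty acid synthesis in fat and liver, was called lower as well, at 0.554, 1.75 and 3.93 FPKM in NC and 0, 0.0907 and 0.0230 in H8. The fitted change of -5.57 ± 1.24 (log2) was -4.74 without NC replicate 3 and -7.28 without H8 replicate 2. Of the 15 genes of fatty acid synthesis and desaturation 2 were called lower (13.3%) and none higher, with 1 lower without NC replicate 1 or 3. Of 19 genes of cholesterol synthesis 1 was called lower and none higher, with a median log2 fold change of -0.14. On the lower side 6 were free of overlap in FPKM, where 15.9% of all genes tested were (10.1% on TMM-scaled CPM). The gene called was TM7SF2, a sterol reductase, at 23.9, 41.7 and 28.9 FPKM in NC and 14.4, 13.7 and 13.3 in H8. Its log2 fold change of -1.06 ± 0.24 fell short of the threshold without NC replicate 2 (-0.77), and was -0.998 and not called without H8 replicate 3.

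**Figure D4:**
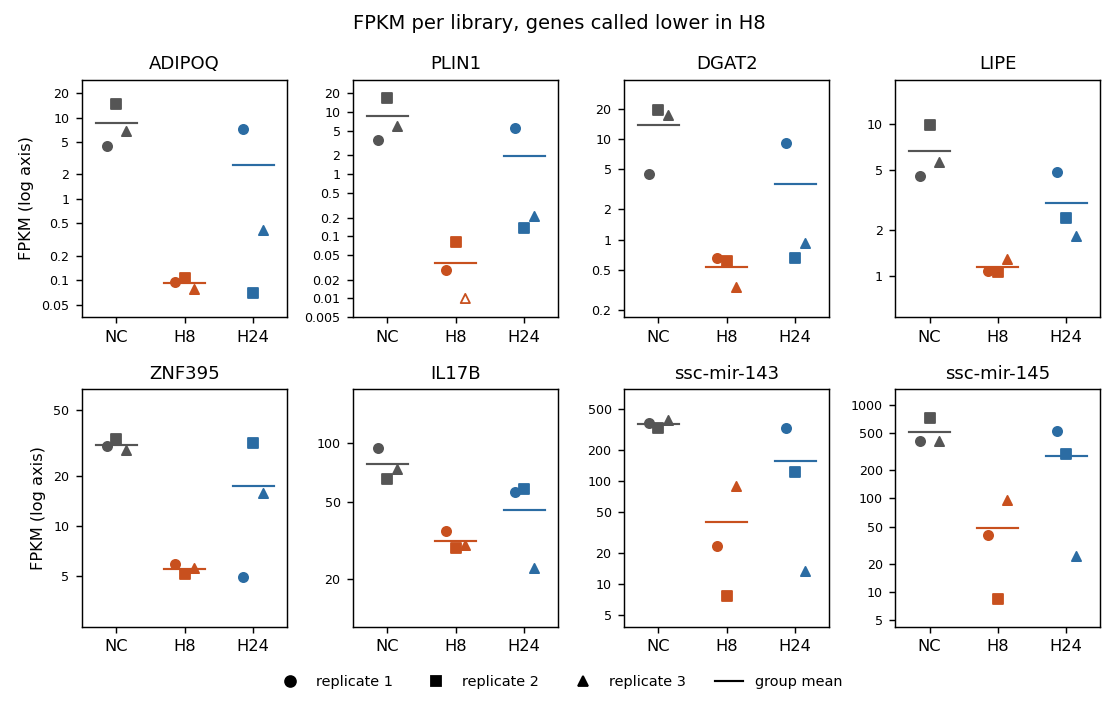
FPKM (vertical log axis) of 8 genes called lower in H8, in each library of NC (grey), H8 (orange) and H24 (blue), with a line at the group mean and an open symbol at 0.01 where the value is listed at 0. All H8 symbols lie under all NC symbols in each panel, and the H24 symbols are spread over both ranges for most genes.

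Among the other genes called lower, SERPINB1, an inhibitor of neutrophil proteases, had FPKM of 10.9, 9.16 and 8.71 in NC and 3.80, 3.14 and 3.20 in H8. Both groups were tight (log2 fold change -1.37 ± 0.16, edgeR adjusted p = 0.0652). PPP1R3B, which directs a phosphatase to glycogen, was at 35.3, 40.7 and 35.7 in NC and 14.9, 14.4 and 16.2 in H8, also tight (log2 fold change -1.16 ± 0.14, edgeR adjusted p = 0.0652). FCN2, a ficolin of the lectin pathway of complement, was called lower and was not on the complement list, with FPKM of 4.14, 4.55 and 2.12 in NC, 0.151, 0.260 and 0.101 in H8 and 1.35, 0.309 and 18.2 in H24 (log2 fold change of H8 over NC -4.20 ± 0.56, edgeR adjusted p = 0.0808). PMF1, a kinetochore protein, was at 2.97, 3.51 and 8.46 in NC and 0.512, 0.322 and 0.728 in H8, with a log2 fold change of -3.13 ± 0.47 that was -2.53 without NC replicate 3. FBXO32, a ubiquitin ligase of muscle protein breakdown, was at 109, 170.4 and 207 in NC and 72.1, 66.1 and 76.5 in H8. For this gene the log2 fold change of -1.05 ± 0.25 was -0.98 without NC replicate 2 and -0.84 without NC replicate 3, and it was then not called.

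Some of the genes called lower with the highest mean FPKM lie together on chromosome 2, around the precursors of miR-143 and miR-145, the microRNA pair known for its abundance in contractile smooth muscle. IL17B, a cytokine gene, lies at chr2:150541317-150545367 on the reverse strand in the coordinates of the deposited table (Sscrofa11.1 by the methods). It was at 94.5, 65.2 and 73.5 FPKM in NC and 35.5, 28.7 and 29.9 in H8, apart and even within each group (log2 fold change -1.17 ± 0.18, edgeR adjusted p = 0.0946). The row named ssc-mir-143, at chr2:150578738-150578817 on the forward strand, had counts of 2043, 2098 and 2138 in NC and 137, 45 and 577 in H8. All H8 libraries were lower, H8 replicate 2 most of all, and the log2 fold change of -3.06 ± 0.75 was -4.38 without H8 replicate 3 (edgeR adjusted p = 0.201 with all). The row named ssc-mir-145, at chr2:150580126-150580211 on the forward strand, had counts of 2493, 5117 and 2439 in NC and 254, 53 and 673 in H8. The log2 fold change of -3.33 ± 0.75 was -4.29 without H8 replicate 3 (edgeR adjusted p = 0.187 with all). In H24 the 2 rows stood at 328, 122 and 13.3 FPKM and 522, 298 and 24.6 FPKM, with H24 replicate 3 in the range of H8 and the others higher.

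These rows are hairpins of 80 and 86 bases, and their counts in libraries of long RNA are not levels of the mature microRNAs. Because FPKM is scaled by length, such short rows rank high on few counts. ADAMTSL4, with lower FPKM in NC, held 30784 to 56848 counts there. The unnamed gene ENSSSCG00000032383, at chr2:150561296-150578183 on the forward strand just before the hairpins, was at 220.3, 324 and 198 FPKM in NC and 33.5, 7.62 and 78.8 in H8 (log2 fold change -2.55 ± 0.71, or -3.47 without H8 replicate 3). A further unnamed gene on the reverse strand, ENSSSCG00000035308, overlaps both it and the miR-143 hairpin and was at 60.3, 137 and 69.5 in NC and 12.9, 2.14 and 17.8 in H8 (log2 fold change -2.93 ± 0.71). Without stated use of strand, reads of these overlapping rows cannot be told apart. Of the 10 tested genes within 100 kb of the stretch from IL17B to miR-145, these 5 were called lower and none higher. The others, AFAP1L1, GRPEL2, PCYOX1L, CSNK1A1 and ARHGEF37, had log2 fold changes of 0.17, -0.96, -0.35, 0.06 and -0.30 and were not called. They were looked at because of their position, after the values of the called genes were seen.

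Few contractile genes of smooth muscle were called in the same libraries, as over all genes. Of 34 tested, 1 was called higher (2.94% against 5.11% of all genes tested) and none lower (against 2.27%). In FPKM, 7 were free of overlap on the lower side and 1 on the higher side, against 15.9% and 6.91% of all genes. The median log2 fold change was -0.04 in H8 and -0.78 in H24. The H24 libraries were uneven, with summed FPKM of 16426, 23216 and 4067 in replicates 1, 2 and 3. ACTA2, smooth muscle actin, was at 3261, 2995 and 2559.6 FPKM in NC and 2587, 1913 and 2847 in H8 (log2 fold change -0.14 ± 0.20). MYOCD, the myocardin coactivator that drives these genes, was the gene called higher, at 19.6, 35.4 and 26.1 in NC and 67.0, 115 and 34.9 in H8, and its log2 fold change of 1.59 ± 0.47 was 0.98 and not called without H8 replicate 2. Of 13 endothelial genes and 10 endothelial adhesion genes none was called. VCAM1, an adhesion molecule for monocytes, was at 24.5, 27.6 and 27.8 FPKM in NC and 36.0, 75.4 and 20.2 in H8, and its log2 fold change of 0.90 ± 0.47 was 0.15 without H8 replicate 2, and 1.27 and called without H8 replicate 3. No gene of 8 for nerve and glia and none of 3 for red blood cells was called.

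Of 24 genes of nitric oxide, cyclic GMP and vasoactive signalling, 3 were called lower (12.5%) and 1 higher. None was higher without NC replicate 2, NC replicate 3 or H8 replicate 2, and 2 were without H8 replicate 1. EDNRA, the endothelin receptor through which smooth muscle contracts, had FPKM of 13.8, 10.2 and 16.4 in NC and 5.15, 3.17 and 5.80 in H8. Every H8 library was below every NC library (log2 fold change -1.39 ± 0.24, edgeR adjusted p = 0.137). NOS2, the inducible nitric oxide synthase, was lower as well, at 0.731, 0.351 and 0.677 in NC and 0.229, 0.149 and 0.227 in H8, under 1 FPKM throughout (log2 fold change -1.40 ± 0.39). None of 29 genes of oxidative phosphorylation, 23 of glycolysis and glucose uptake and 23 of the cell cycle was called, with median log2 fold changes of 0.10, 0.23 and 0.21.

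Set beside H24, the same thresholds called 1475 genes higher in H24 than in NC (9.95% of 14828 tested) and 225 lower (1.52%), with 0 at an edgeR adjusted p under 0.05 and 2055 at an unadjusted p under 0.05. Both comparisons use the same NC libraries. Between H24 and H8 directly, 1068 genes were called higher in H24 (7.22% of 14788) and 451 lower (3.05%), and 2 passed an edgeR adjusted p under 0.05. The median log2 fold changes of H8 and H24 against NC were 1.89 and 4.81 for the macrophage list, 0.85 and 1.90 for complement, -0.65 and -0.43 for fat cells, and 0.41 and -0.08 for collagen chains. The H24 libraries were not alike. Summed FPKM in H24 replicates 1, 2 and 3 was 705, 446 and 3833 for the macrophage list and 1382, 1348 and 4046 for complement, with replicate 3 far above the others.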

How the data were processed

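The 3 NC, 3 H8 and 3 H24 libraries of aorta were profiled by paired-end sequencing of poly(A)-selected RNA, and samples were grouped by the disease and diet given per the labels. According to the methods, the authors aligned reads to Sscrofa11.1 with HISAT 2.0 and computed FPKM with StringTie 1.3.0, so the deposited FPKM values are scaled for gene length and depth. The submitters' processing notes also name Bowtie 0.12.2, whose role is not given. The deposited table further holds expected counts, whole numbers whose derivation is not given in the sources used here, and they were used unrounded as deposited. Tests used these counts, and levels are FPKM.

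Genes whose FPKM averaged 0.1 or more in the 6 libraries compared entered edgeR 4.0.16 (R 4.3.3), with TMM scaling, a quasi-likelihood fit of the 3 H8 and 3 NC libraries without covariates, and Benjamini-Hochberg adjustment over all 14336 genes. The deposited table held 21357 genes, of which 5119 had no name, and 932 of these took a symbol from the reference gene table. Libraries of a group differed by at least 181.6 times the chi-square expected from sampling per degree of freedom, so none was a duplicate. The 6 libraries held at least 64805289 counts each. The test scripts were tested on simulated data.

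The members and the 48 gene lists were chosen with earlier results of these data known. Genes were named by a rule. It took the 10 genes in each direction with the smallest p or largest change among those called, free of overlap and with a mean FPKM of at least 1, the 5 most abundant per direction, up to 4 with the smallest p from each list, and the hub, transcription factor and RT-PCR genes of the study. Markers that were not called, CEBPA, the neighbours on chromosome 2 and the single genes of the closing observations, other than NR1D2 and ERRFI1, fall outside it and were chosen after their values were seen. Listed genes not matched by name were not used here. Alternatives were other scalings, no filter or a mean FPKM of at least 1, DESeq2 1.42.0, the likelihood ratio test, limma 3.58.1 on log2(FPKM + 0.1) and log2(FPKM + 1), all 9 libraries in one fit, the replicate number as a block, and each library left out.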

Additional observations from a re-analysis of the deposited data

Results flagged for a closer look

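ENSSSCG00000033041, a gene without a symbol at chr17:58985580-59055340 that the gene table describes as part of the GNAS complex locus, differed between the high-fat groups. Its FPKM was 0, 6.71 and 1.32 in the NC libraries, 9.05e-07, 0 and 0 in H8, and 5.03, 4.08 and 4.27 in H24. The H24 libraries were alike and far above H8, while NC ran from 0 to above H24. The fitted log2 fold change of H24 over H8 was 11.78 ± 0.67 (SE, 3 libraries per group, edgeR adjusted p = 0.00553). The gene was listed because this direct test of H24 against H8 passed the adjusted threshold. Weeks of feeding and the age reached cannot be told apart in that test. Since H8 was at 0, the fitted size depends on the prior count and is no bound. H8 against NC gave -11.16 ± 2.79 (edgeR adjusted p = 0.205). Reads of overlapping transcripts at this locus may be shared.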

How the results depend on the processing

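The counts of 733 genes higher and 326 lower by the thresholds of the study were 714 and 339 with median-ratio scaling, 576 and 459 with library size only, and 696 and 352 with upper-quartile scaling. They were 440 and 178 at a mean FPKM of at least 1, 454 and 505 with limma on log2(FPKM + 0.1), 202 and 141 with limma on log2(FPKM + 1), and 569 to 796 and 251 to 448 when 1 library at a time was left out. Library size only moved the median of all genes to -0.13 and limma on log2(FPKM + 0.1) to -0.12, from 0.01. Past the adjusted threshold, where edgeR's quasi-likelihood test had 2 higher and 2 lower, DESeq2 had 446 and 171, edgeR's likelihood ratio test 373 and 142, limma on log2(FPKM + 0.1) 12 and 14, and a fit of all 9 libraries 0 and 0. The number higher was 4 with library size only, 6 with no filter and 5 at a mean FPKM of at least 1. With 1 library left out the numbers ranged from 0 to 34 higher and from 1 to 4 lower. With limma on log2(FPKM + 1), the genes called higher were 7 immediate early, 3 NF-kappa B and 4 interferon-stimulated genes, and the NF-kappa B count ranged from 4 to 10 when 1 library was left out. The causes were not tested.

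Of 98 genes with values in the text, 80 were called, and 56 of these were called under every alternative they were tested in. No called gene changed direction. Genes not called that changed sign were CSNK1A1 (-0.10 with library size only, -0.091 and -0.089 with limma at pseudocounts of 0.1 and 1) and, with 1 library left out, PCYOX1L (-0.52 to 0.060), MRC1 (-0.0059 to 0.40), CSNK1A1 (-0.085 to 0.17), AFAP1L1 (-0.15 to 0.67) and MYH11 (-0.12 to 0.12).

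The replicate number as a block gave 639 genes higher and 311 lower, with 0 and 0 past the adjusted threshold. The deviations of same-numbered NC and H8 libraries from their group means correlated across genes at 0.04, 0.07 and -0.02, and H8 replicates 1 and 2 but not 3 correlated best with their own number. With 3 pairs, these small correlations cannot show whether same-numbered libraries had more than a number in common. An exact permutation test of 3 against 3 libraries cannot go below p = 0.1, and 3 counts per library is the limit of detection.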

Other observations

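Several gene groups outside the main account held a few calls, most of which rest on single libraries. Of 18 clock genes tested, 3 were called lower (16.7%), 0 of them without NC replicate 1 and 1 without H8 replicate 2. Another 1 was called higher, with 0 higher without NC replicate 1, NC replicate 2 or H8 replicate 2 and 2 without NC replicate 3 or H8 replicate 3. NR1D2, a repressor of the clock loop, had FPKM of 6.98, 5.65 and 4.19 in NC and 2.03, 2.503 and 2.57 in H8. The groups were apart, but its log2 fold change of -1.10 ± 0.24 was -0.93 without NC replicate 1 and -0.995 without H8 replicate 1, and it was then not called. Of 21 genes that mark position along the aorta, such as the HOX genes, 2 were called lower (9.52%), with 1 without NC replicate 1 or 2, 4 without NC replicate 3 or H8 replicate 3 and 0 without H8 replicate 2. On the higher side 1 of these genes was called, and 0 when any library other than H8 replicate 3 was left out. Genes of the glucocorticoid response were called higher in 4 of 17 cases (23.5%), or 2 without H8 replicate 2, and lower in none. The list went both ways, with 9 log2 fold changes above 0, 8 below and a median of 0.26. In FPKM, 3 were free of overlap on the higher side and 4 on the lower side, against 6.91% and 15.9% of all genes tested (11.3% and 10.1% on TMM-scaled CPM). Among the genes called higher was ERRFI1, a feedback inhibitor of epidermal growth factor receptors, at 25.1, 36.0 and 68.8 FPKM in NC and 165, 274 and 92.6 in H8 (log2 fold change 2.21 ± 0.52). Coagulation and fibrinolysis genes were called higher in 5 of 21 cases (23.8%), or 3 without NC replicate 1 and 2 without H8 replicate 2. In the same list 1 was called lower, or 0 without NC replicate 1 or 2 and 2 without NC replicate 3. Of 14 hypoxia genes 3 were called higher, or 1 without NC replicate 1, NC replicate 2 or H8 replicate 2. Of 25 antioxidant genes 3 were called higher, or 1 without NC replicate 2 and 0 without NC replicate 3.

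Other genes with small p-values and groups free of overlap were picked after their values were seen. IL10RA, the receptor for the anti-inflammatory cytokine interleukin-10, had FPKM of 3.21, 3.60 and 3.99 in NC and 22.7, 15.1 and 9.77 in H8 (log2 fold change 2.28 ± 0.31). CD83, a marker of activated dendritic cells, was at 2.54, 1.63 and 1.46 in NC and 19.2, 8.65 and 6.28 in H8 (log2 fold change 2.74 ± 0.45). CYP7A1, the rate-limiting enzyme of bile acid synthesis and a gene of the liver, was at 0.0408, 0.0118 and 0.0549 FPKM in NC and 1.26, 0.318 and 0.572 in H8 (log2 fold change 4.44 ± 0.76, or 3.75 without H8 replicate 1). It was low in all 6 libraries and higher in every H8 library. CA3, a carbonic anhydrase of fat and slow muscle, was at 0.835, 2.06 and 2.28 in NC and 0.0115, 0 and 0 in H8, and TRARG1, which regulates glucose transporter traffic in fat cells, at 1.56, 2.45 and 1.33 in NC and 0.143, 0.0721 and 0.0290 in H8. Both were called lower, CA3 with 2 H8 libraries at 0. CA3 was not on the adipocyte list. TRARG1 was on it under its older name TUSC5, was not matched by name and so was not counted there.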
